A study of Mus musculus with 21 samples.

Results

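The mouse MHC class II pathway was followed through 6 of its genes, H2-Aa, H2-Ab1, H2-Eb1, H2-DMa, Cd74 and Ciita. Every probe set of the deposited table whose single gene symbol was one of these names was taken, which gave 14 of 45101 probe sets and 6 of 18194 named genes. The study sorted TdTomato-positive, Mist1-positive cells of mouse small intestine by flow cytometry into fractions of low CD24 (CD24lo) and high CD24 (CD24hi). Mist1 marks secretory cells as a transcription factor, TdTomato fluoresces red, and CD24 sits on the cell surface. Each fraction came from untreated mice, from Lgr5-ablated mice (titled DT in the labels), from mice irradiated with 10 Gy, from mice given doxorubicin (spelled doxorubucin in the labels) and from mice expressing NICD, with 2 arrays for each of the 10 groups. All 20 of these samples therefore share the TdTomato mark and the sort, and 1 further array holds whole intestine, whose cell type label is villi. The labels give no strain, age, sex, allele, Cre driver or time after treatment for any group, and they do not say whether the arrays of a group came from different mice. P-values therefore describe the spread between these arrays, which may be technical except where sex-linked transcripts, given below, set the 2 arrays of a group apart.

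MHC class II molecules are pairs of an alpha and a beta chain that carry peptides of engulfed or internal proteins to the cell surface, where CD4 T cells read them. The chains assemble on the invariant chain, which fills the groove until cathepsins trim it and the H2-M exchange factor swaps its last fragment for a peptide. Professional antigen-presenting cells make these molecules all the time, while epithelial cells of the intestine make them in an adjustable way, mainly under interferon gamma. That control runs through CIITA, a coactivator that binds no DNA itself and docks on the factors assembled at the X and Y boxes of the class II promoters.

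The X box and Y box are shown because the chain genes moved together across the arrays described below. The 120 bases before the annotated start of 2 chain genes were read from RefSeq's promoter table for GRCm38.p6, at chr17:34287824-34287943 on the minus strand for H2-Aa and chr17:34305747-34305866 on the plus strand for H2-Eb1. Both stretches are upstream of the transcript, and capitals mark the X box core GCAACT and then the Y box CTGATTGG.
H2-Aa: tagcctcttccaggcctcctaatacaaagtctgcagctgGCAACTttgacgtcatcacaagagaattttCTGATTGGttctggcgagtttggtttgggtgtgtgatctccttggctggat
H2-Eb1: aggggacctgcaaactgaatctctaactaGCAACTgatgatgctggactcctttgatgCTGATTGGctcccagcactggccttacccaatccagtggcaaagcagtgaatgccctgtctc
The core began 30 bases before the Y box in H2-Aa and 29 bases before it in H2-Eb1. Searched on both strands, CTGATTGG occurred in 4.1% and GCAACT in 10.9% of the 32851 promoter windows of the table, each of which spans 250 bases before to 50 bases after a start. The core lay at most 60 bases before the Y box on the same strand in 13 windows (0.0396%). The table was searched for 3 of the 6 genes, and the 2 windows of H2-DMa held neither string. These matches describe letters only.

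Values are MAS5 signal, a linear intensity that the authors' processing scaled to a trimmed mean of 500 on every array, and differences are given on the log2(signal + 16) scale with their standard error. Sorted arrays had medians of 100.7 to 158.3, and precision is limited by having 2 arrays per group. The 10 epithelial markers checked were above the array median on all 20 sorted arrays. Lgr5, the receptor gene that names the ablated cells, read 237 and 76 in CD24lo and 1140 and 788 in CD24hi cells after ablation, against 463 and 332 and against 2841 and 1962 in untreated cells. The second CD24hi NICD array stood apart in its brightest probe set, at a signal of 75343.

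Some arrays differed in transcripts that depend on sex or on the class II haplotype, which were looked up after values had been seen. H2-Ea, the alpha chain partner of H2-Eb1, is annotated by RefSeq as a transcribed pseudogene in its reference strain and lacks its promoter in strains of the b haplotype. Its brightest probe set read 2377 and 2366 on the first Lgr5-ablated array of CD24lo and of CD24hi cells and at most 31 on every other array. Xist, the RNA of the inactive X chromosome, read 9223 to 13107 on 8 arrays, namely all 4 doxorubicin arrays, the second untreated array of each fraction and the first Lgr5-ablated array of each fraction. It read at most 605 on the other 12 sorted arrays, which include all 4 irradiated and all 4 NICD arrays, and the Y-linked gene Eif2s3y was high on those 12 at 1046 to 2664 against at most 61 on the 8. So irradiated arrays were all of 1 type, and Lgr5-ablated arrays were 1 of each type per fraction. Results that rest on these arrays are given below also without the arrays with H2-Ea signal and with the Xist type as a block, both chosen after seeing the data.

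Cd74, the invariant chain, was highest in Lgr5-ablated and lowest in irradiated cells. Its signal was 1334 and 2386 in untreated CD24lo cells, 4837 and 5276 after Lgr5 ablation and 332 and 433 after irradiation. In CD24hi cells it was 1925 and 2193 untreated, 7342 and 5950 after ablation and 331 and 298 after irradiation. The 3 conditions did not overlap in either fraction. For single pairs of conditions, such separation within a fraction was common among all tested genes. Ablated arrays lay above irradiated ones for 22.1% of genes in CD24lo and 26.3% in CD24hi cells. They lay above untreated ones for 14.6% and 18.2%, and irradiated arrays lay below untreated ones for 26.9% and 24.8%. The share of genes with all 3 conditions apart was not counted. With doxorubicin, Cd74 read 2902 and 3353 in CD24lo and 1410 and 1136 in CD24hi cells. NICD arrays read 1833 and 1102 in CD24lo and 1864 and 3454 in CD24hi cells, which overlapped the untreated arrays of both fractions.

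H2-Eb1, a beta chain, gave the same order of ablated, untreated and irradiated cells. It read 1097 and 1515 in untreated, 4058 and 6383 in Lgr5-ablated and 377 and 385 in irradiated CD24lo cells. The CD24hi arrays gave 2364 and 1842, 5116 and 6271, and 315 and 288 for the same conditions. Each condition was again apart from the others within a fraction. The remaining arrays lay between irradiated and ablated cells, at 2901 and 3012 (CD24lo) and 1746 and 2000 (CD24hi) after doxorubicin and at 2813 and 2075 (CD24lo) and 3037 and 2576 (CD24hi) with NICD.

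H2-Aa and H2-Ab1 form the alpha and beta chains of 1 molecule. H2-Aa read 666 and 1474 in untreated, 3246 and 4566 in Lgr5-ablated and 276 and 283 in irradiated CD24lo cells, and 1579 and 1355, 3992 and 4147, and 277 and 116 in the same CD24hi groups. After doxorubicin its signal was 3936 and 4104 in CD24lo cells, within the range of the ablated arrays, and 1523 and 1608 in CD24hi cells, beside the untreated ones. H2-Ab1 varied less. It read 2337 and 2481 in untreated, 3668 and 4137 in ablated and 1190 and 745 in irradiated CD24lo cells, and 1680 and 2105, 4119 and 3744, and 717 and 511 in CD24hi cells. Within a fraction the 3 conditions did not overlap for either chain, and the shares of all genes given with Cd74 apply here too. With NICD, H2-Aa read 3142 and 2719 in CD24lo and 2220 and 1668 in CD24hi cells, above the untreated arrays of each fraction. H2-Ab1 with NICD read 2456 and 1552 in CD24lo and 2592 and 3243 in CD24hi cells, above untreated arrays in CD24hi cells alone. After doxorubicin H2-Ab1 read 3507 and 3876 in CD24lo cells and 1715 and 1506 in CD24hi cells, where it overlapped the untreated arrays.

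H2-DMa encodes the alpha chain of H2-M. It read 398 and 704 in untreated, 1041 and 1419 in ablated and 96 and 110 in irradiated CD24lo cells. In CD24hi cells the same groups gave 465 and 506, 1102 and 1157, and 60 and 54. H2-DMa was below the array median on the 4 irradiated arrays and above it on the other 16 of 20. Doxorubicin gave 663 and 737 in CD24lo but 302 and 261 in CD24hi cells, the latter under both untreated CD24hi arrays. NICD arrays read 781 and 533 in CD24lo cells, which overlapped untreated cells, and 523 and 680 in CD24hi cells, which were above them.

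Ciita was dim. Its brighter probe set read 73 and 127 in untreated, 353 and 242 in ablated and 81 and 125 in irradiated CD24lo cells. CD24hi cells gave 179 and 146, 415 and 249, and 104 and 136. Ablated arrays were thus above all others of these 3 conditions, while irradiated and untreated arrays overlapped in CD24lo cells. Doxorubicin gave 362 and 253 in CD24lo and 161 and 122 in CD24hi cells, and NICD gave 235 and 218 and then 246 and 314. Signal was above the array median on 14 of 20 sorted arrays. In bulk RNA of sorted cells, fewer cells of a type and less RNA per cell cannot be told apart.

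**Figure D1:**
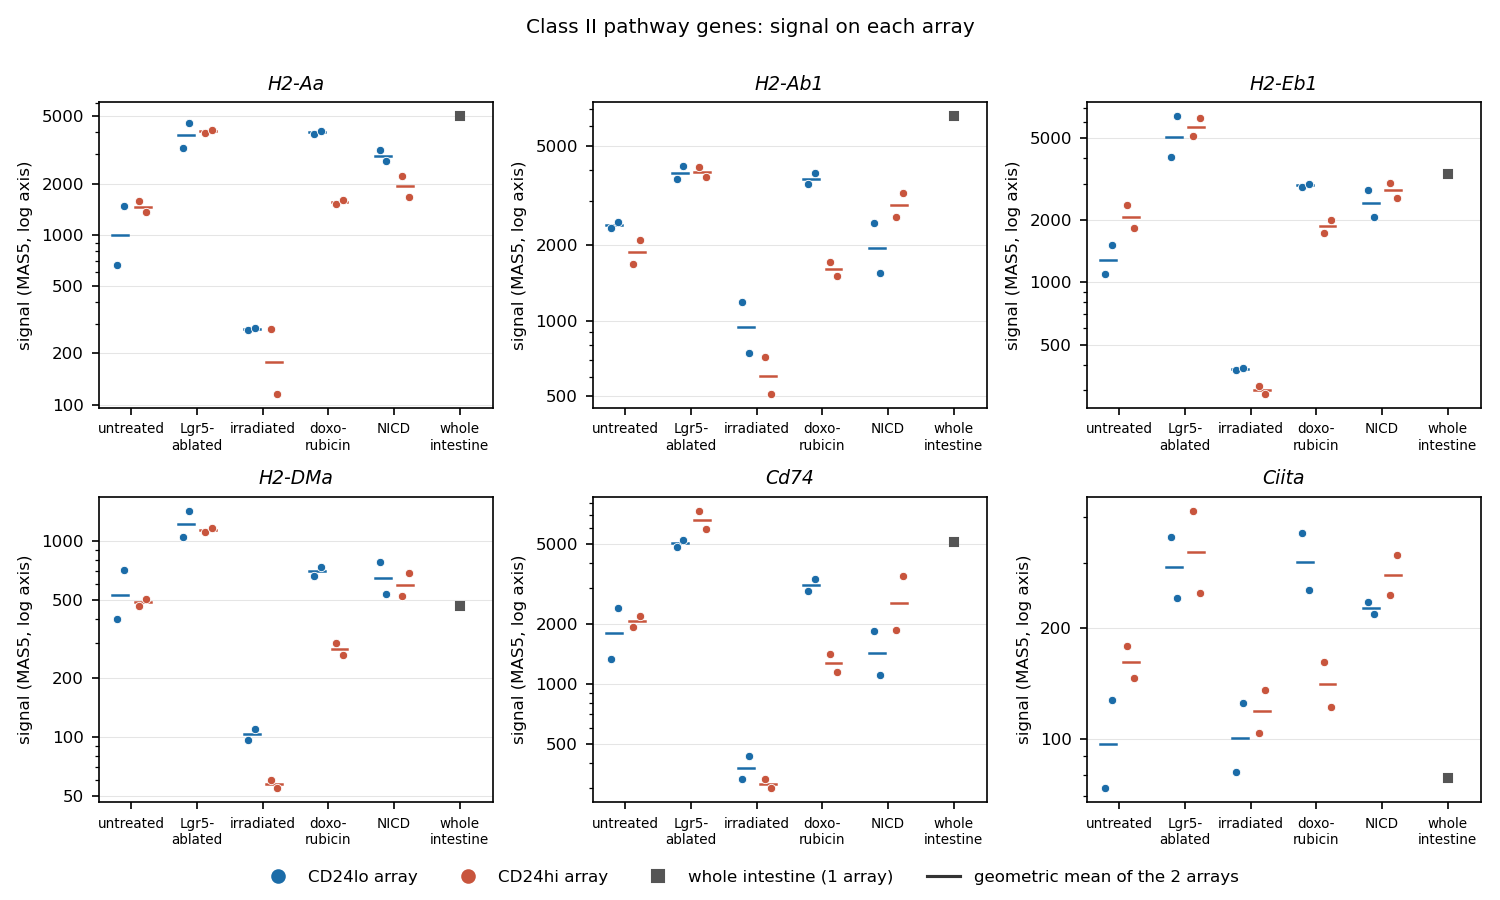
Signal of each gene (log axis, MAS5 units) on each array by condition, with CD24lo arrays in blue, CD24hi arrays in red, a bar at the geometric mean of the 2 arrays and a square for whole intestine. For 5 genes the irradiated arrays lie lowest and for all 6 the Lgr5-ablated arrays lie above the untreated ones, while Ciita after irradiation lies among or just under the untreated arrays.

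Ranked by mean log2 level, the 2 Lgr5-ablated groups came first and second for H2-Eb1, H2-Ab1, H2-DMa and Cd74, and the 2 irradiated groups came last for every gene but Ciita. For Cd74 the order was CD24hi ablated at 12.69 ± 0.21 (SD, n = 2), CD24lo ablated at 12.31 ± 0.09, CD24lo doxorubicin at 11.61 ± 0.15, CD24hi NICD at 11.32 ± 0.63, CD24hi untreated at 11.02 ± 0.13, CD24lo untreated at 10.81 ± 0.59, CD24lo NICD at 10.49 ± 0.51, CD24hi doxorubicin at 10.32 ± 0.22, CD24lo irradiated at 8.63 ± 0.26 and CD24hi irradiated at 8.37 ± 0.10. The arrays of neighbours from CD24lo doxorubicin down to CD24hi doxorubicin overlapped, and the 2 ablated groups did not overlap each other or the group next in order. Both irradiated groups lay under all others, and between themselves they were less than 1 unit of signal apart at 332 and 331, which is no difference beyond their spread. For H2-Aa, CD24lo doxorubicin at 11.98 ± 0.04 lay between CD24hi ablated at 12.00 ± 0.04 and CD24lo ablated at 11.92 ± 0.35, and these 3 overlapped. For Ciita, CD24lo untreated came last at 6.82 ± 0.48 and overlapped CD24lo irradiated at 6.87 ± 0.38, and the highest 4 groups, from CD24hi ablated at 8.40 ± 0.50 to CD24hi NICD at 8.20 ± 0.24, overlapped as neighbours.

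Lgr5 ablation was then set against irradiation directly. All 6 genes were higher after ablation in CD24lo cells, where limma called 1.16% of 11854 tested genes higher, and all 6 in CD24hi cells, where it called 5.57%. Averaged over both fractions 6 of 6 were higher against 8.13% of all genes. The median difference of the 6 genes was 3.53 in CD24lo, 4.06 in CD24hi and 3.80 over both, beside -0.02, 0.01 and -0.02 for all genes. On the 4 arrays of each condition the groups did not overlap for 6 of 6 genes, which held for 7.17% of all genes in that direction. Counts and p-values over both fractions take the CD24lo and CD24hi arrays of a condition as independent. Same-numbered untreated and ablated arrays of the 2 fractions were alike in Xist, Eif2s3y and H2-Ea type, and the labels do not say whether they share a mouse. With the 2 fractions of each condition and number averaged into 1 sample, an alternative chosen after seeing the data that leaves 2 samples per condition, 6 of 6 were higher against 5.8% of all genes, with adjusted p values in limma from 1.17e-06 for Cd74 to 0.00995 for Ciita.

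Sizes differed among the genes. Over both fractions H2-Aa differed by 4.04 ± 0.24 (16.5-fold on this scale), Cd74 by 4.0 ± 0.21, H2-Eb1 by 3.92 ± 0.16 (15.2-fold) and H2-DMa by 3.67 ± 0.19 (12.7-fold). H2-Ab1 differed by 2.35 ± 0.17 (5.09-fold) and Ciita by 1.36 ± 0.24 (2.57-fold). The adjusted p of limma, two-sided and by Benjamini-Hochberg over all genes, was 2.17e-10 for H2-Eb1, the smallest of the 6, and 0.00101 for Ciita, the largest. Within fractions, H2-Eb1 differed by 3.69 ± 0.23 in CD24lo (adjusted p = 1.53e-07, limma) and by 4.16 ± 0.23 in CD24hi cells (adjusted p = 2.22e-08). The value was larger in CD24hi cells for 5 of the 6 genes, and 0 of 6 passed the test of that difference between fractions in limma, with 0 at an unadjusted p below 0.05 and 0.0422% of all genes called.

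Ciita gave the least firm of these calls, with an adjusted p of 0.0371 in CD24lo and 0.019 in CD24hi cells (limma). It lost its call in CD24lo cells without ablated array 1, irradiated array 1 or irradiated array 2, at adjusted p values of 0.201, 0.36 and 0.0609, and in CD24hi cells without ablated array 1 or irradiated array 1, at 0.204 and 0.187. Leaving out both ablated arrays with H2-Ea signal, so that only arrays of the low Xist type were compared, left 5 of 6 genes higher in each fraction and 6 of 6 over both. H2-Eb1 then differed by 4.16 over both fractions (adjusted p = 1.68e-09, limma) and Cd74 by 3.96. Ciita lost its call in each fraction then (adjusted p = 0.163 and 0.18, limma) but was called over both at 1.05 (0.0199). With the Xist type as a block, 6 of 6 were higher in each fraction. The shares of all genes called in the refits of this paragraph are not given here, and those above belong to the main fit.

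**Figure D2:**
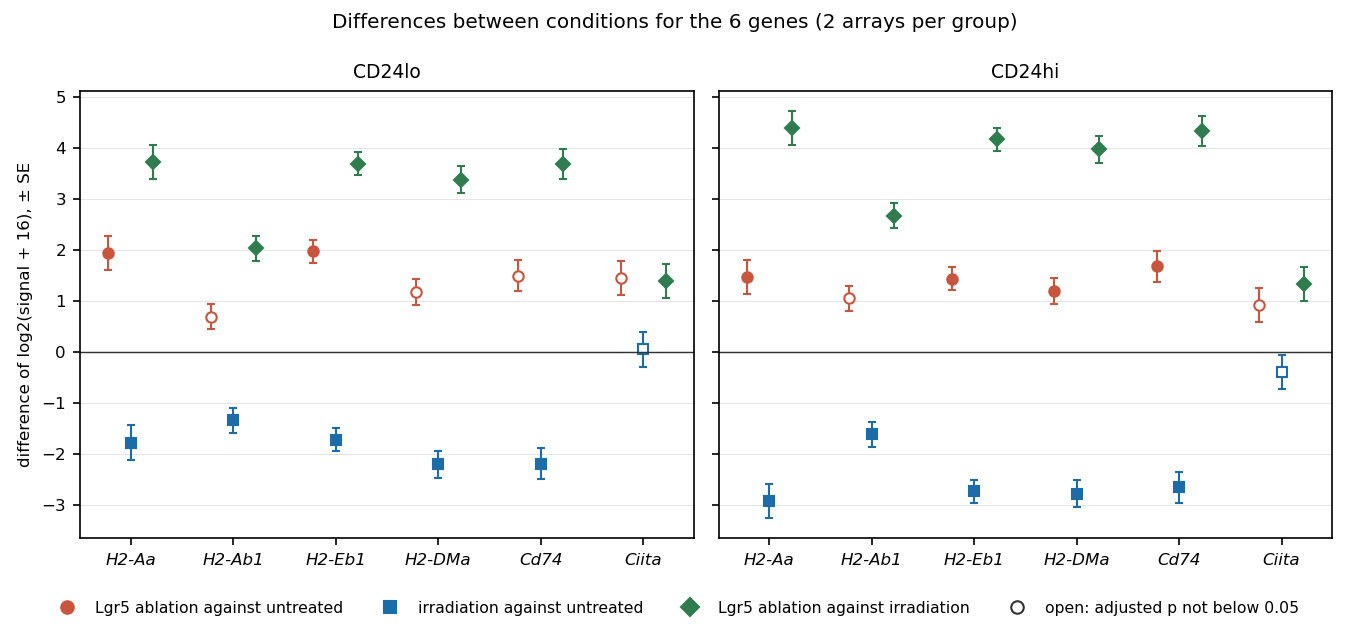
Differences of log2(signal + 16) with SE for Lgr5 ablation against untreated (circles), irradiation against untreated (squares) and ablation against irradiation (diamonds), in CD24lo and CD24hi cells, 2 arrays per group; open symbols did not pass an adjusted p of 0.05. Every ablation value lies above 0, irradiation values lie between -2.91 and -1.34 apart from Ciita, and the direct contrast lies between 1.32 and 4.38.

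Each injury was also compared with untreated cells, and these comparisons share the untreated arrays. After ablation 2 of 6 genes passed in CD24lo cells, H2-Eb1 at 1.97 ± 0.23 (adjusted p = 0.00089, limma) and H2-Aa at 1.94 ± 0.33 (adjusted p = 0.0183), where 0.0928% of all genes were called higher. In CD24hi cells 4 of 6 passed against 0.574% of all genes, namely Cd74 at 1.68 ± 0.30, H2-Aa at 1.47 ± 0.33, H2-Eb1 at 1.43 ± 0.23 and H2-DMa at 1.19 ± 0.26. H2-Aa was at the threshold (adjusted p = 0.0499, limma) and lost its call in 12 of 19 alternatives, H2-DMa in 7, Cd74 in 4 and H2-Eb1 in 1, while H2-Ab1 (adjusted p = 0.0524, limma) gained one in 6. The other differences were positive too, from 0.69 ± 0.24 for H2-Ab1 to 1.49 ± 0.30 for Cd74 in CD24lo cells, and 1.06 ± 0.24 for H2-Ab1 and 0.93 ± 0.33 for Ciita in CD24hi cells. On the 4 ablated and 4 untreated arrays of both fractions, 6 of 6 genes did not overlap, as did 1.66% of all genes in that direction, and these 4 arrays may likewise not be 4 independent samples. All 6 had an unadjusted p below 0.05 in each fraction, and the share of all genes at that unadjusted threshold is not given here. The test of the difference between fractions passed for 0 of 6 in limma (0.0169% of all genes), with 0 at an unadjusted p below 0.05.

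Several of these calls hung on single arrays. In CD24lo cells 1 gene passed without untreated array 1 or without ablated array 2, and 4 passed without untreated array 2. In CD24hi cells the count was 1 without untreated array 1, 0 without untreated array 2, 1 without ablated array 1 and 2 without ablated array 2. Without both arrays with H2-Ea signal it was 2 in CD24lo and 1 in CD24hi cells, and with the Xist type as a block it was 4 and 5. Every difference of the 6 genes was positive in these fits, and the shares of all genes called in them are not given here. H2-Eb1 kept its call in CD24lo cells under each of the 4 single omissions, with differences of 1.64 to 2.29.

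After irradiation 5 of 6 genes were lower in CD24lo cells, where 2.45% of all genes were called lower, and the same number in CD24hi cells, where 3.33% were. Over both fractions the 4 irradiated arrays lay below the 4 untreated arrays for 5 of 6 genes, against 7.86% of all genes. The differences in CD24lo cells were -2.20 ± 0.26 for H2-DMa, -2.19 ± 0.30 for Cd74, -1.77 ± 0.33 for H2-Aa, -1.72 ± 0.23 for H2-Eb1 and -1.34 ± 0.24 for H2-Ab1. In CD24hi cells the differences were -2.91 ± 0.33 for H2-Aa, -2.77 ± 0.26 for H2-DMa, -2.73 ± 0.23 for H2-Eb1 (adjusted p = 5.23e-06, limma), -2.65 ± 0.30 for Cd74 and -1.61 ± 0.24 for H2-Ab1. Ciita did not pass on its brighter probe set, at 0.05 ± 0.33 (95% interval -0.69 to 0.79) and -0.40 ± 0.33 (-1.14 to 0.34). These intervals use the 10 residual degrees of freedom alone, so they are wider than ones matched to the moderated p-values. Without the second untreated CD24lo array, H2-Aa and H2-Ab1 lost their calls in CD24lo cells (adjusted p = 0.11 and 0.0509, limma) leaving a count of 3. H2-Aa also lost its CD24lo call without irradiated array 1 (0.0644) and H2-Ab1 without irradiated array 2 (0.0782). In CD24hi cells the count was 5 in each of the 4 single omissions. Between the fractions 0 of 6 genes passed the test of the difference in limma (0.00844% of all genes), with 2 at an unadjusted p below 0.05, H2-Eb1 at -1.01 ± 0.32 and H2-Aa at -1.14 ± 0.47.

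The 14 probe sets did not all read alike. The filter on low signal kept 11 of them and left out H2-Aa 1443783_x_at, H2-DMa 1459872_x_at and Ciita 1447075_at, each above the array median on 0 of 20 sorted arrays. H2-Aa 1443783_x_at went the other way in CD24lo cells, at 6 to 11 on ablated and 27 to 29 on irradiated arrays. In CD24hi cells it overlapped, at 7 to 14 and 12 to 30. H2-DMa 1459872_x_at was higher on ablated arrays, at 87 to 90 against 3 to 34 in CD24lo cells. Its CD24hi values were 61 to 86 against 7.7 to 7.8, and neither probe set was tested. In the fit of every kept probe set, ablation exceeded irradiation for 11 of 11, over both fractions by 2.35 to 2.90 for the 3 probe sets of H2-Ab1 and by 3.78 to 5.58 for the 3 kept probe sets of H2-Aa. H2-Aa 1452431_s_at gave the 5.58 ± 0.26. It read 53 to 126 on the irradiated arrays and 3895 to 5837 on the ablated ones. Probe sets ending in _x_at or _s_at can also match related transcripts, and both H2-Aa and H2-Ab1 were read through such types. With irradiation in CD24lo cells, H2-Aa 1438858_x_at at -1.02 ± 0.33 (adjusted p = 0.0945, limma over all kept probe sets) and H2-Ab1 1425477_x_at at -0.93 ± 0.26 (0.0554) did not pass, unlike the other kept probe sets of these 2 genes.

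Ciita's probe sets disagreed on irradiation. Ciita 1421211_a_at read 69 and 75 in untreated, 264 and 222 in ablated and 11 and 8 in irradiated CD24lo cells. CD24hi cells gave 91 and 89, 247 and 215, and 8 and 3. No 2 of these conditions overlapped within a fraction, which was common among all genes for single pairs of conditions. This probe set fell with irradiation by 1.80 ± 0.38 in CD24lo (adjusted p = 0.0153, limma over all kept probe sets) and by 2.31 ± 0.38 in CD24hi cells (adjusted p = 0.00158), where 1421210_at gave 0.05 and -0.40. Ablation exceeded irradiation by 3.44 ± 0.27 on 1421211_a_at, against 1.36 ± 0.23 on 1421210_at. The dimmest, Ciita 1447075_at, read 34 to 73 on the ablated and 4 to 13 on the irradiated arrays, and was not tested.

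**Figure D3:**
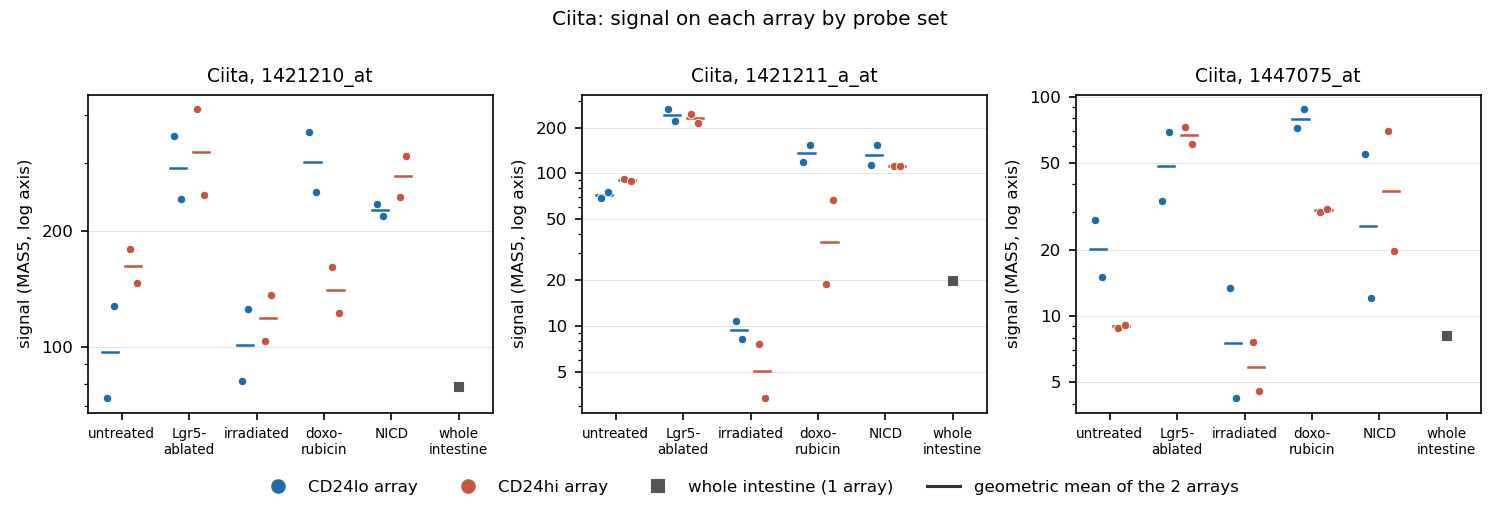
Signal of the 3 Ciita probe sets (log axis, MAS5 units) on each array by condition, drawn as in the plot of the 6 genes. On 1421211_a_at the irradiated arrays lie at 3 to 11, under every untreated array, while on 1421210_at irradiated and untreated CD24lo arrays overlap.

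With doxorubicin, calls were made in CD24lo and not in CD24hi cells. In CD24lo cells 3 of 6 genes rose over untreated cells, H2-Aa by 2.00 ± 0.33 (adjusted p = 0.00193, limma), Ciita by 1.49 ± 0.33 and H2-Eb1 by 1.19 ± 0.23, where 5.47% of all genes were called higher. Cd74 at 0.80 ± 0.30, H2-Ab1 at 0.61 ± 0.24 and H2-DMa at 0.39 ± 0.26 did not pass. In CD24hi cells 0 of 6 passed in limma (1.2% of all genes in either direction), with 2 at an unadjusted p below 0.05, H2-DMa at -0.76 ± 0.26 and Cd74 at -0.69 ± 0.30. The effect was lower in CD24hi than in CD24lo cells for 6 of 6 genes, with a median difference of -1.42 beside 0.06 for all genes. All 6 had an unadjusted p below 0.05, and the share of all genes at that unadjusted threshold is not given here. After adjustment 0 of 6 passed in limma, where 0.0337% of all genes passed, the smallest adjusted p of the 6 being 0.134 for H2-Eb1 at -1.34 ± 0.32. Ciita lost its CD24lo call without untreated array 1 (adjusted p = 0.0639, limma) or doxorubicin array 1 (0.102). All 4 doxorubicin arrays were of the high Xist type, and with that type as a block the counts were again 3 and 0.

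With NICD 3 of 6 genes were higher in CD24lo cells, H2-Aa by 1.54 ± 0.33 (adjusted p = 0.0126, limma), Ciita by 1.10 ± 0.33 and H2-Eb1 by 0.90 ± 0.23, where 6.7% of all genes were called higher. The other members were at -0.33 ± 0.30 for Cd74, -0.30 ± 0.24 for H2-Ab1 and 0.28 ± 0.26 for H2-DMa, so H2-Aa and its partner chain H2-Ab1 did not give the same call, a difference that was not tested. The count was 0 without untreated array 1, 1 without NICD array 1 and 0 without NICD array 2. In CD24hi cells 0 of 6 passed in limma (6.56% in either direction), with 2 at an unadjusted p below 0.05, H2-Ab1 at 0.62 ± 0.24 and Ciita at 0.73 ± 0.33. The difference between the fractions passed for 0 of 6 genes (limma; 2.65% of all genes, and 2 members at an unadjusted p below 0.05). Without NICD array 1 of CD24lo cells H2-Ab1 passed, at 1.25 (adjusted p = 0.0473).

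The fractions themselves were also compared. In untreated mice 0 of 6 passed between CD24hi and CD24lo cells in limma, where 14.4% of all genes did, and 1 had an unadjusted p below 0.05, H2-Eb1 at 0.69 ± 0.23 (adjusted p = 0.0537). Averaged over the 5 conditions H2-DMa was lower in CD24hi cells by 0.46 ± 0.12, H2-Aa by 0.38 ± 0.15 and H2-Ab1 by 0.32 ± 0.11, 3 of 6 against 19.2% of all genes called lower. H2-Eb1 at 0.01 ± 0.10, Ciita at 0.05 ± 0.15 and Cd74 at -0.03 ± 0.13 did not pass. Without untreated CD24lo array 2, H2-Aa and H2-Eb1 passed as higher in untreated CD24hi cells (adjusted p = 0.0467 and 0.0385, limma). Of 20 single omissions, H2-DMa was called in 20 in the average over conditions. H2-Aa was called in 4, the omissions of array 1 of untreated CD24lo, Lgr5-ablated CD24lo, irradiated CD24hi and NICD CD24hi cells. H2-Ab1 was called in 14, and not without untreated CD24hi array 1, irradiated CD24lo array 1, irradiated CD24hi array 2, NICD CD24lo array 1 or doxorubicin array 2 of either fraction.

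Genes that work beside the members were counted from lists of the pathway, in the contrast of ablation with irradiation over both fractions, where limma called 8.13% of all genes higher and 5.66% lower. Of 7 tested genes for other class II chains and for peptide loading, 1 was higher and 0 lower, with a median of 0.47 that was 0.082 without the arrays with H2-Ea signal. That was Ctss, the cathepsin that trims the invariant chain, at 0.96 ± 0.24 (adjusted p = 0.0137, limma). H2-Ea, with signal on the 2 ablated arrays named above, was at 2.84 ± 1.27 (adjusted p = 0.154, limma). Ifi30, a reductase of the loading compartment, was at -0.06 ± 0.19, and H2-Oa, a chain of the H2-O inhibitor of H2-M, failed the filter. H2-DMb1 had no probe set with a single symbol and was not analysed here.

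Genes of class II transcription and turnover gave 2 higher and 0 lower of 12, the transcription factors Spib at 1.11 ± 0.34 and Irf8 at 0.72 ± 0.16, with a median of 0.25. Rfx5, the DNA-binding subunit at the X box, was at -0.46 ± 0.17 (adjusted p = 0.08, limma). Without the arrays with H2-Ea signal this list gave 0 higher and 1 lower, Rfx5 at -0.69 (adjusted p = 0.0263, limma).

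Genes of interferon gamma signalling gave 6 higher and 0 lower of 13, with a median of 0.24. Cxcl9, a chemokine gene induced by interferon gamma, read 389 and 322 in CD24lo and 946 and 1207 in CD24hi cells after ablation and at most 15 on the 4 irradiated arrays. Its untreated signals were 26 and 6 in CD24lo and 5 and 21 in CD24hi cells. Cxcl9 rose with ablation over untreated cells by 3.61 ± 0.47 in CD24lo (adjusted p = 0.00147, limma) and 5.26 ± 0.47 in CD24hi cells (1.76e-05). Against irradiation the difference for Cxcl9 was 4.90 ± 0.33 (adjusted p = 8.1e-08, limma). It was followed by the GTPase gene Gbp2 at 3.27 ± 0.30, by Ido1, which breaks down tryptophan, at 2.47 ± 0.31 and by the chemokine gene Cxcl10 at 2.09 ± 0.43. Irf1, the transcription factor between interferon gamma and the Ciita promoter, was higher by 0.60 ± 0.12 (adjusted p = 0.00344, limma). Ifng itself was above the array median on 0 of 20 sorted arrays. Without the arrays with H2-Ea signal 4 of the 13 were higher, namely Cxcl9, Gbp2, Ido1 and Irf1.

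MHC class I genes and their loading gave 10 higher and 1 lower of 18, with a median of 0.49. Those higher included the immunoproteasome subunits Psmb9 at 2.28 ± 0.14 and Psmb8 at 1.57 ± 0.12, Nlrc5, the class I counterpart of CIITA, at 2.12 ± 0.20, and the peptide transporter subunit Tap2 at 1.60 ± 0.19. H2-K1, a classical heavy chain, was lower by 0.63 ± 0.16 and B2m, its light chain, was at 0.08 ± 0.15. Psmb9 read 4309 and 3794 in untreated, 4395 and 5716 in ablated and 1720 and 1350 in irradiated CD24lo cells, and 2111 and 1896, 3388 and 3769, and 402 and 567 in CD24hi cells. It fell with irradiation in both fractions, by 1.40 ± 0.20 and 2.03 ± 0.20, and its differences with ablation, 0.31 ± 0.20 and 0.83 ± 0.20, did not pass. Without the arrays with H2-Ea signal 7 of the 18 were higher and 0 lower. Of 4 tested costimulatory genes, Icam1 at 1.86 ± 0.27 and Icosl at 0.78 ± 0.23 were higher and Cd80, at -2.02 ± 0.32, was lower on the brighter of its probe sets that passed the filter, a still brighter one being above the array median on 0 of 20 sorted arrays. Without those arrays Icam1 and Cd80 passed.

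**Figure D4:**
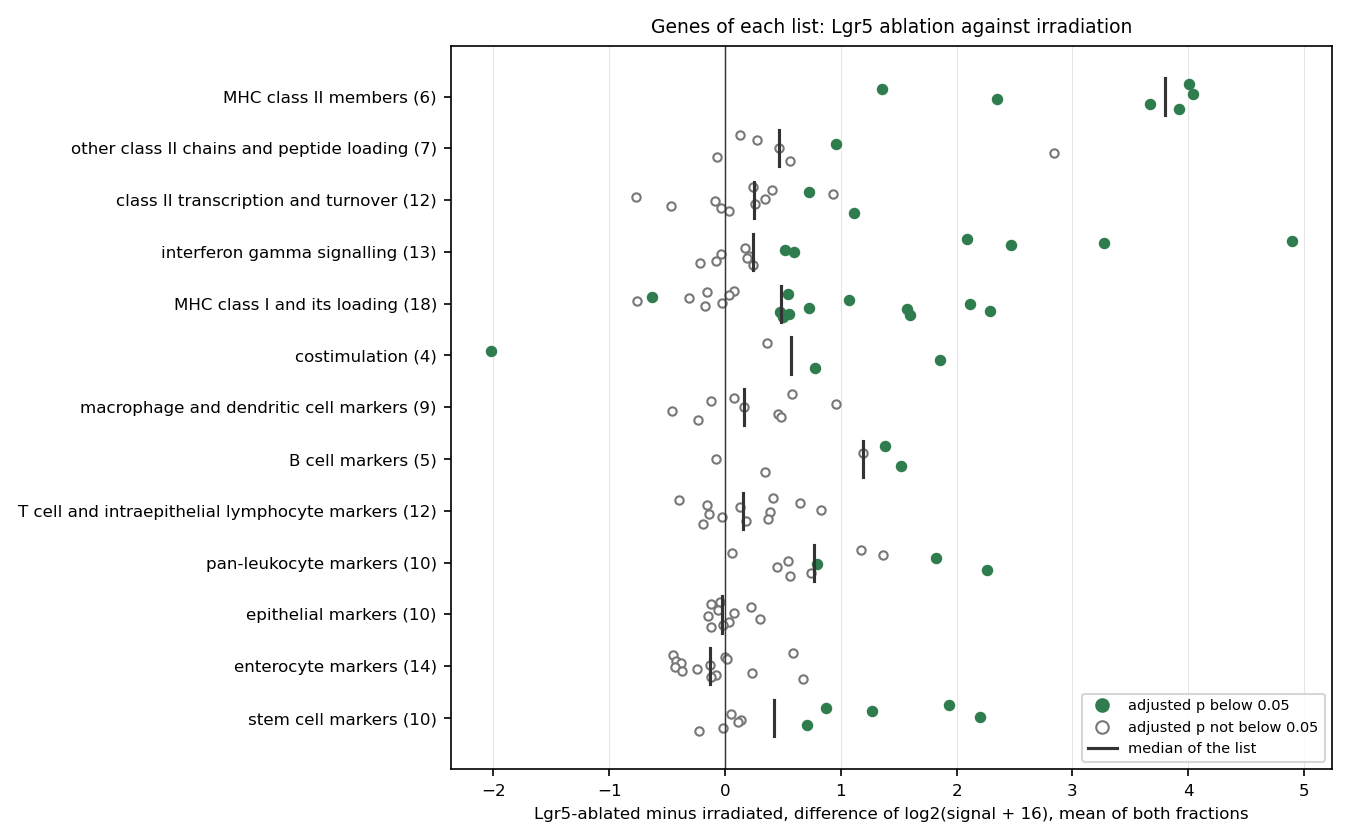
Lgr5-ablated minus irradiated difference of log2(signal + 16), mean of both fractions, for each tested gene of 13 lists; filled points passed an adjusted p of 0.05, bars mark list medians and numbers in parentheses are tested genes. The 6 class II genes have a median of 3.80, and the other pathway lists have medians of 0.24 to 0.57 with single genes as high as 4.90.

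Because class II genes are abundant in leukocytes, markers of leukocytes were read on the same arrays. Of 10 pan-leukocyte genes 3 were higher after ablation than after irradiation over both fractions, with a median of 0.77. Ptprc, which encodes CD45, read 589 and 211 in CD24lo and 319 and 263 in CD24hi cells after ablation and 20 and 93, and 50 and 77, after irradiation, a difference of 2.27 ± 0.49 (adjusted p = 0.00553, limma). Coro1a was higher by 1.82 ± 0.52 and Lcp1 by 0.79 ± 0.22. Leaving out the arrays with H2-Ea signal left 1 ablated array per fraction. The median difference was then 0.48 for the 10 pan-leukocyte genes and 3.88 for the 6 class II genes.

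The summed signal of the 10 pan-leukocyte genes ran from 2119 to 4044 in ablated and from 1461 to 1599 in irradiated CD24lo cells, and from 4220 to 4990 and from 2901 to 3218 in CD24hi cells. It was highest with NICD in CD24lo cells, at 11006 to 12022 against 1378 to 3370 untreated. In that group H2-Aa, Ciita and H2-Eb1 were called higher than in untreated cells, as given above, and Cd74, H2-Ab1 and H2-DMa overlapped the untreated arrays. The class II sum and the pan-leukocyte sum were both higher in ablated than in irradiated cells of each fraction, but they did not rank all groups alike. Sums of linear signal are weighted to the brightest genes, and 2 of the 10 pan-leukocyte genes were above the array median on all 20 sorted arrays. The class II sum was 17202 to 22022 in ablated CD24lo cells, 8199 to 11259 in NICD CD24lo cells and 5905 to 8688 in untreated CD24lo cells. The part of leukocyte RNA in the class II values was not tested.

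Markers of macrophages and dendritic cells gave 0 of 9 tested genes higher or lower over both fractions in limma, with 3 at an unadjusted p below 0.05. The direction of these 3 and the share of all genes at that unadjusted threshold are not given here. Of the 20 genes of that list 8 were above the array median on 0 sorted arrays, namely Adgre1, Xcr1, Batf3, Cx3cr1, Fcgr1, C1qb, C1qc and Ccr7. The others were above it on some arrays, among them Tyrobp on 4, Itgax on 3, Zbtb46 on 2 and Csf1r on 1, and Cd68 and Lyz2 on all 20. The summed signal of the 20 genes was 6320 to 6589 in ablated and 7544 to 9234 in irradiated CD24lo cells, and 6481 to 10429 and 9276 to 10583 in CD24hi cells. Lyz2, a lysozyme gene, made up most of that sum on the ablated and irradiated arrays, so the sum mainly follows 1 gene and does not show how the other markers changed.

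B cell markers gave 2 higher of 5, Jchain at 1.52 ± 0.47 and Cd37 at 1.38 ± 0.44. Jchain, a gene of plasma cells, read 1858 and 394 in CD24lo and 10668 and 2132 in CD24hi cells after ablation, so the arrays with H2-Ea signal were the high ones. Without those arrays the median difference of the 5 tested B cell markers was 0.40 over both fractions, and the fractions differed, at -0.48 in CD24lo and 1.17 in CD24hi cells. Cd79b, Pax5, Cd22, Blk and Cr2 were above the array median on 0 sorted arrays, Ms4a1 on 2, Cd79a and Cd37 on 3, Fcrla on 6 and Jchain on all 20. T cell markers gave 0 of 12 in limma, with 0 at an unadjusted p below 0.05, and Cd8a, which marks many intraepithelial lymphocytes, was at 0.83 ± 0.42 (adjusted p = 0.219, limma). Their sum was 1250 to 1532 in ablated and 1095 to 1573 in irradiated CD24lo cells and was highest among sorted groups in CD24lo doxorubicin cells, at 4536 to 4905. Of 10 epithelial markers 0 passed between ablation and irradiation in limma, with 0 at an unadjusted p below 0.05, and of 14 enterocyte markers 0, with 3 (limma). Without the arrays with H2-Ea signal 2 enterocyte markers were higher, the sugar transporters Slc2a2 at 1.36 and Slc5a1 at 1.13. Stem cell markers gave 5 higher of 10, among them Olfm4 at 2.20 ± 0.22 and Ascl2 at 1.93 ± 0.35.

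**Figure D5:**
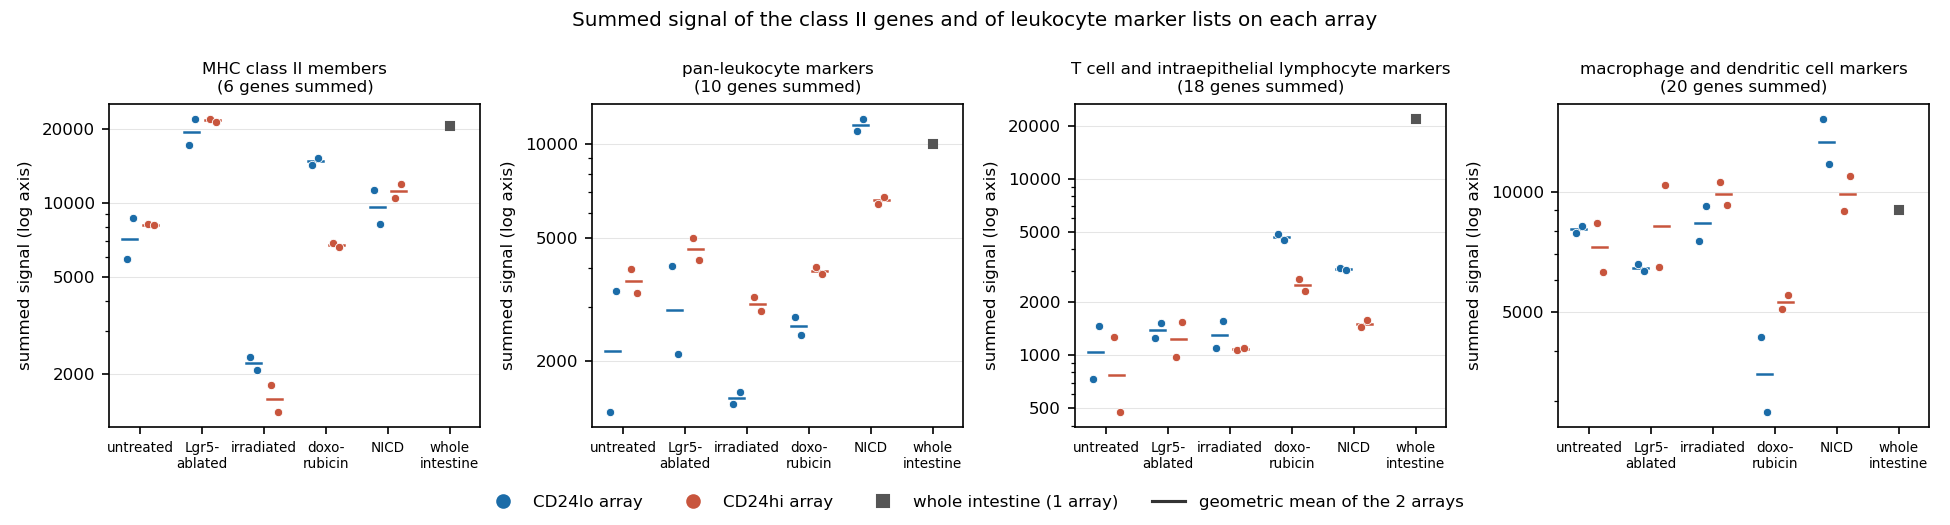
Summed signal (log axis, MAS5 units) on each array of the 6 class II genes, 10 pan-leukocyte genes, 18 T cell and intraepithelial lymphocyte genes and 20 macrophage and dendritic cell genes, by condition and drawn as in the plot of the 6 genes. Class II sums peak in Lgr5-ablated cells at 17202 to 22087 and pan-leukocyte sums with NICD in CD24lo cells at 11006 to 12022. In each fraction both sums are higher after ablation than after irradiation. For pan-leukocyte genes they are 2119 to 4044 against 1461 to 1599 in CD24lo and 4220 to 4990 against 2901 to 3218 in CD24hi cells. The part of leukocyte RNA in the class II sums was not tested.

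The members followed each other across the sorted arrays. Pearson's r between pairs of the 5 genes other than Ciita was 0.90 to 0.97 over 20 arrays, and 0.64 to 0.90 over the 16 arrays without irradiation. Pairs with Ciita gave 0.69 to 0.77 over 20 arrays. These are descriptions over arrays that share groups, so they carry no p-value. The genes whose pattern was most like the mean centred profile of the members over 20 arrays were Muc4, a membrane mucin, at r = 0.83, H2-Q5, a class I gene, at 0.82, Got2, a mitochondrial transaminase, at 0.82, Psmb9 at 0.81, Ctse, a cathepsin, at 0.80, Casp12, a caspase, at 0.80, Gbp8, a GTPase gene, at 0.76 and BC064078 at 0.75. Without the irradiated arrays the r of these 8 genes was 0.40 to 0.76, highest for BC064078 and lowest for Got2.

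These genes did not all share both parts of the pattern. BC064078 was higher after ablation than in untreated cells by 3.21 ± 0.27 in CD24lo (adjusted p = 1.76e-05, limma) and 2.90 ± 0.27 in CD24hi cells, but its irradiation values of -0.04 ± 0.27 and -0.43 ± 0.27 did not pass. It was also higher with NICD, by 1.71 ± 0.27 and 2.58 ± 0.27. Got2 differed the other way, with irradiation values of -0.69 ± 0.19 (adjusted p = 0.0491, limma) and -0.95 ± 0.19 (0.00531), and its ablation values of 0.17 ± 0.19 and 0.13 ± 0.19 did not pass.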

How the data were processed

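RNA of 20 sorted samples and 1 of whole intestine, 0.8 ng each and labelled with biotin per the labels' protocols, was read on 1 Affymetrix array per sample. The deposited table holds 1 linear signal intensity for each of 45101 probe sets. The submitters' processing notes name MAS5 as the authors' software, whose version is not given in the sources used here. MAS5 scales each array to 1 mean, so a shift of the whole transcriptome would not show. The table held no detection calls, so dim probe sets are not separated from background, and folds of dim genes are understated. Probe sets with 1 gene symbol (34958) were kept when above their array's median on at least 2 of 20 sorted arrays, and the brightest kept one stood for each gene, for 11854 genes. Limma 3.58.1 in R 4.3.3 fitted log2(signal + 16) with 1 mean per group, 10 residual degrees of freedom and trended moderation. There were 18 comparisons, 3 of them added after seeing the data, with a threshold of 0.05 after Benjamini-Hochberg adjustment over all genes, two-sided. The procedure was tested on simulated data. Named were all 6 members, list genes set by name or up to 4 per list with the largest called change, and the 8 genes most correlated with the members. Members, lists, markers and these rules were chosen with earlier results of these data known. Arrays with the same number correlated in their deviations between fractions at 0.34, 0.39, 0.07, -0.10 and -0.15 for untreated, Lgr5-ablated, irradiated, doxorubicin and NICD. The value for Lgr5-ablated was the highest among all 45 pairs of groups, whose lowest was -0.41. Numbers were not used as pairs in the main fits, although the untreated and Lgr5-ablated values leave pairing possible there. Alternatives were pseudocounts of 1 and 64, other scalings, filters, probe set rules and moderation, the replicate block, omitted arrays and, chosen after seeing the data, fits without the arrays named above, with the Xist type as a block, with fractions paired, and with fractions averaged.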

Additional observations from a re-analysis of the deposited data

Results flagged for a closer look

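Whole intestine entered no comparison. Its 1 array was above all 4 untreated sorted arrays for H2-Ab1 at a signal of 6538, Cd74 at 5149, H2-Aa at 4976 and H2-Eb1 at 3350. H2-DMa at 462 and Ciita at 79 were not. The T cell list summed to 21934 there, against at most 4905 in any sorted sample.

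With doxorubicin both Cd74 arrays were above the untreated ones in CD24lo and below them in CD24hi cells, and neither effect passed in limma (0.80, adjusted p = 0.0815, and -0.69, adjusted p = 0.37). The difference between the effects was -1.49 ± 0.43 (limma, adjusted p = 0.217), which did not pass the threshold.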

How the results depend on the processing

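Over all comparisons the single genes were recomputed 2262 times. Of these values 2149 stayed on their side of the threshold, among them 58 that changed sign while past it in neither fit. Another 84 lost their call, 29 gained one and 0 called values reversed. In ablation against irradiation the counts of 6 stayed at 5 or 6 in every alternative. For ablation against untreated in CD24lo cells the count of 2 became 4 with the mean of probe sets or the Xist type as a block, 1 without the trend and 0 with those groups alone, and in CD24hi cells the count of 4 became 2 without the filter and 1 without the arrays with H2-Ea signal. With NICD it became 1 in CD24lo cells with those groups alone and 1 in CD24hi cells with the mean of probe sets. In untreated cells between fractions it became 1 with the mean of probe sets, without the array that stood apart, with the Xist type as a block or with fractions paired, and in the average over conditions 1 after quantile normalization. Leaving out 1 array at a time gave ranges of 5 to 6 for ablation against irradiation in each fraction and 6 to 6 over both, 1 to 4 and 0 to 2 for ablation against untreated in CD24lo and CD24hi cells, 3 to 5 and 5 to 5 for irradiation, 2 to 3 and 0 to 0 for doxorubicin, 0 to 3 and 0 to 0 for NICD, 0 to 2 between fractions untreated, 1 to 3 in the average, and 0 to 0 for the differences between fractions except 0 to 1 for NICD. The cause of these changes was not tested. Apart from the fit with fractions averaged, the shares of all genes called in these alternatives are not given here. With the replicate block, ablation against untreated in CD24hi cells gave 3 and the average over conditions gave 2, and no other count changed. Pairing the fractions by condition and number, fitted only between fractions, moved no other count. Single omissions left a group with 1 array, whose spread was taken to equal that of the rest. With 2 arrays a group, changes of dim genes such as Ciita are at the limit of what these arrays can show.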
